A study of Sus scrofa with 5 samples.

Results

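The small leucine-rich proteoglycans examined here are lumican (LUM), decorin (DCN), biglycan (BGN), fibromodulin (FMOD), osteoglycin (OGN), PRELP, asporin (ASPN) and podocan (PODN). They were picked by gene symbol, and all 8 were found among the 30822 genes listed for each library. The libraries came from ovarian follicles of female pigs of the Indian Ghoongroo breed, 3 of them from large follicles and 2 from small follicles. The study sets the 2 follicle sizes against each other. The labels name no treatment, age or follicle diameter, and they call the replicates biological without saying that each came from its own animal. The p-values below therefore measure only the spread between these samples. Each library was whole follicle tissue, so fewer cells of a type and less RNA per cell cannot be told apart in any value below.

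Small leucine-rich proteoglycans are secreted matrix proteins built around a curved stack of leucine-rich repeats. Most bind the surface of collagen fibrils and limit how thick the fibrils grow, many carry chondroitin, dermatan or keratan sulfate chains, and several hold growth factors of the TGF-beta family in the matrix. In the ovary they belong mainly to the theca and stroma outside the basement membrane that encloses the granulosa cells. The mesenchymal receptors PDGFRA and PDGFRB, which mark these outer layers, were present in every library at 19.5 to 31.8 FPKM and 35.8 to 49.8 FPKM. FPKM is the number of fragments scaled by gene length and by the total of the library, so levels can be set side by side between genes. Library totals, worked back from the FPKM values, were 9523739 to 11507527 fragments.

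Large follicle replicate 2 stood apart from the other 2 large follicle libraries. It had the fewest genes at 1 FPKM or more, 11784, against up to 13064 in another library. Of the 13087 genes tested, 8100 (61.9%) were lower in it than in both other large follicle libraries. Measured from the mean of replicates 1 and 3 on the log2(FPKM + 1) scale, its median gene stood at -0.27.

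None of the 8 genes differed between large and small follicles at an adjusted p under 0.05 in limma's moderated two-sided test on log2(FPKM + 1), with Benjamini-Hochberg adjustment over all 13087 genes tested. The background was 0.978% of genes called. At an unadjusted p under 0.05 there were 3 of the 8 genes, ASPN, BGN and PRELP, against a background of 10.4%. Limma voom on the recovered fragments also called 0 of them, with 3 at an unadjusted p under 0.05. That unadjusted count depended on the fit. It was 1 after median-of-ratios scaling, 2 with quantile normalization and 1 without large follicle replicate 2. Without large follicle replicate 1 it was 4, namely BGN, FMOD, LUM and PRELP. The values of the 2 groups did not overlap for 5 of the 8 genes, against 26.1% of all genes tested. BGN, FMOD, PRELP and ASPN lay higher in every large follicle library (background 10.9%), and PODN lay lower (background 15.2%). DCN, LUM and OGN overlapped between the groups. The log2 difference was above 0 for 5 of the 8 genes, against 39.9% of all genes tested. Median log2 differences, large minus small, were 0.35 over the 8 genes and -0.08 over all genes tested.

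**Figure D1:**
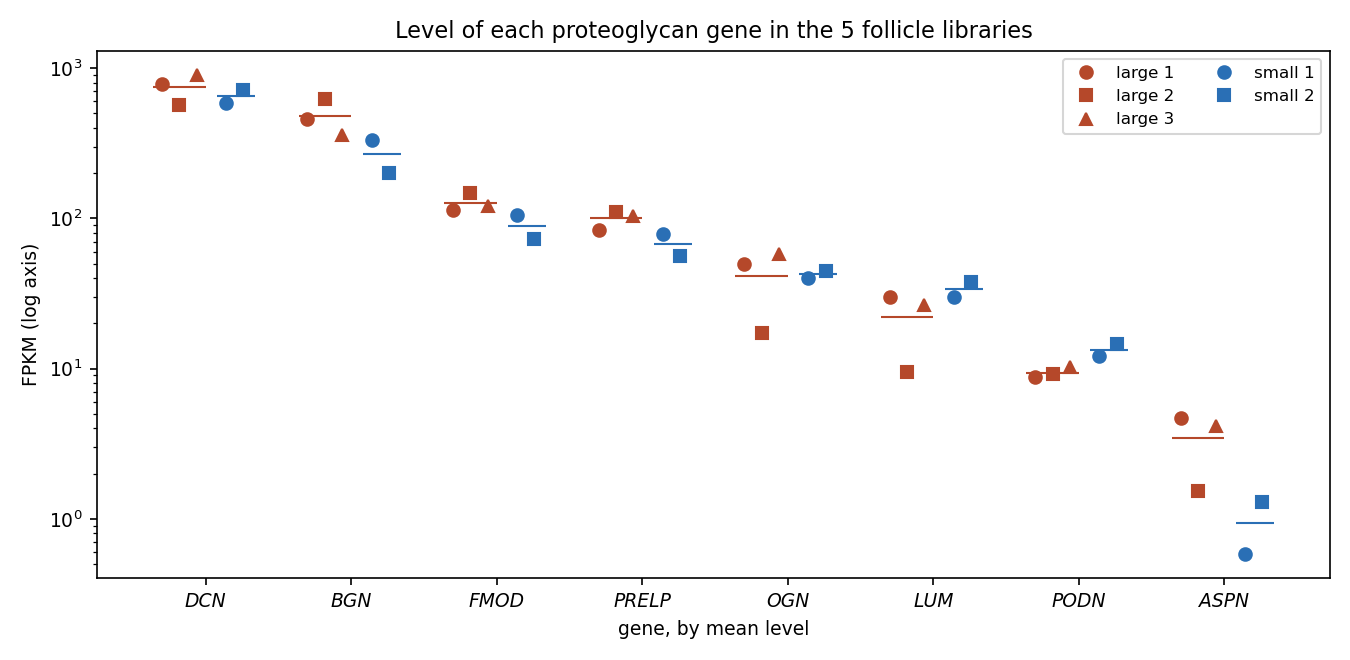
FPKM on a log axis for each of the 8 genes (horizontal axis, ordered by mean level) in the 3 large follicle libraries (red) and the 2 small follicle libraries (blue). Points are single libraries and short lines are group means; DCN and BGN lie near the top, ASPN at the bottom, and large replicate 2 (red square) lies below the other large follicle libraries for DCN, OGN, LUM and ASPN.

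The order of the levels was nearly fixed. From the highest down it ran DCN, BGN, FMOD, PRELP, OGN, LUM, PODN and ASPN in 4 libraries. In large follicle replicate 2 only the first 2 places were exchanged, with BGN at 625 FPKM above DCN at 567 FPKM. By mean level DCN stood at place 125 and BGN at place 202 among the 13087 genes, that is, within the top 0.948% and 1.54%. At the other end, 78.3% of tested genes lay above ASPN. Taken over all libraries, the values of DCN and BGN overlapped, as did those of FMOD and PRELP and those of OGN and LUM. Within each library FMOD still lay above PRELP, and OGN above LUM.

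The 8 genes together had 1537, 1487 and 1585 FPKM in large follicle replicates 1, 2 and 3, against 1187 and 1149 FPKM in replicates 1 and 2 of small follicles. All 3 large follicle sums lay above both small follicle sums. As a share of all FPKM of the library these sums were 0.217%, 0.219% and 0.258% in large and 0.179% and 0.205% in small follicles, again without overlap. A sum over genes chosen by name was given no test. DCN and BGN made up 77.5% to 81.1% of the sum in every library. How that portion was divided varied more, with DCN at 38.1% in large follicle replicate 2 and 62.7% in small follicle replicate 2.

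**Figure D2:**
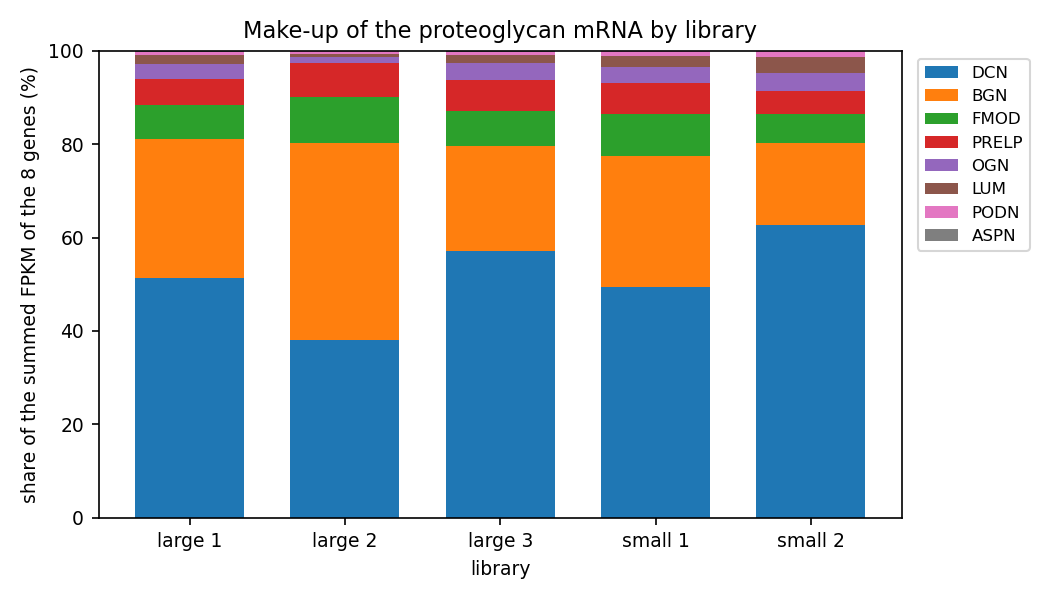
Share of each gene in the summed FPKM of the 8 genes (vertical axis, percent) for each library (horizontal axis). DCN and BGN fill about the same part of every bar, but BGN takes 42.0% in large replicate 2 and 17.5% in small replicate 2.

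Decorin, which binds collagen fibrils and TGF-beta and carries a chondroitin or dermatan sulfate chain, is encoded by DCN (gene 396957, Sscrofa11.1 chromosome 5, 91678601 to 91713925, plus strand). It had 789.9, 567 and 904 FPKM in large follicle replicates 1, 2 and 3, against 586 and 721 FPKM in replicates 1 and 2 of small follicles. Replicate 2 was the low one of the large follicles and lay below both small follicle libraries. The log2 difference was 0.19 ± 0.28 (SE), with a 95% interval from -0.44 to 0.81 and a limma adjusted p = 0.895. It was larger without large follicle replicate 2, at 0.38 (limma adjusted p = 0.802), or small follicle replicate 2, at 0.34. It was near 0 without large follicle replicate 3 or small follicle replicate 1, at 0.04 in both.

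Biglycan is the closest relative of decorin and, released from the matrix, can signal through the Toll-like receptors TLR2 and TLR4. BGN (gene 397396, chromosome X, 124282048 to 124295450, plus strand) had 456, 625 and 357 FPKM in large follicle replicates 1, 2 and 3, against 333 and 201 FPKM in replicates 1 and 2 of small follicles. Every large follicle library lay above both small ones, with large replicate 3 and small replicate 1 nearest to each other. The means were 479 ± 135 FPKM (SD, n = 3) and 267 ± 93.7 FPKM (SD, n = 2), a ratio of 1.80. The log2 difference was 0.85 ± 0.31 (SE, 95% interval 0.16 to 1.54), with an unadjusted limma p of 0.0208 and an adjusted p of 0.342. It was reduced to 0.49 when small follicle replicate 2 was left out (limma adjusted p = 0.9996) and stood at 1.22 when the other small follicle library was left out (limma adjusted p = 0.257), so its size rested on which small follicle library was kept.

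DCN and BGN moved against each other inside both groups. The ratio of DCN to BGN in FPKM was 1.73, 0.908 and 2.53 in large follicle replicates 1, 2 and 3, against 1.76 and 3.59 in replicates 1 and 2 of small follicles. The spread within a group exceeded the distance between the group means of 1.72 and 2.68.

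Asporin, the third relative in this class, has a stretch of aspartates in place of a sugar chain and binds TGF-beta. ASPN (gene 100511749, chromosome 3, 42165553 to 42192902, minus strand) had 4.70, 1.52 and 4.15 FPKM in large follicle replicates 1, 2 and 3, from 146, 41 and 117 fragments. In small follicle replicates 1 and 2 it had 0.584 and 1.29 FPKM, from 15 and 35 fragments. The groups did not overlap, but large replicate 2 and small replicate 2 lay within counting error of each other, with exact Poisson 95% intervals of 1.09 to 2.06 and 0.900 to 1.80 FPKM.

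ASPN had the largest log2 difference of the 8 genes, 1.14 ± 0.39 (SE, 95% interval 0.27 to 2.01), with an unadjusted limma p of 0.0158 and an adjusted p of 0.309. Without large follicle replicate 2 the log2 difference was 1.51 and passed the threshold (limma adjusted p = 0.0255), when 2.05% of all genes were called. It was the single call among the 8 genes in any of the 5 fits that left out a library. Group means were 3.46 ± 1.70 FPKM (SD, n = 3) and 0.938 ± 0.501 FPKM (SD, n = 2), a ratio of 3.68. The log2 difference was 1.72 with a pseudocount of 0.1 and 0.49 with a pseudocount of 5, and neither was called (limma adjusted p = 0.321 and 0.329).

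**Figure D3:**
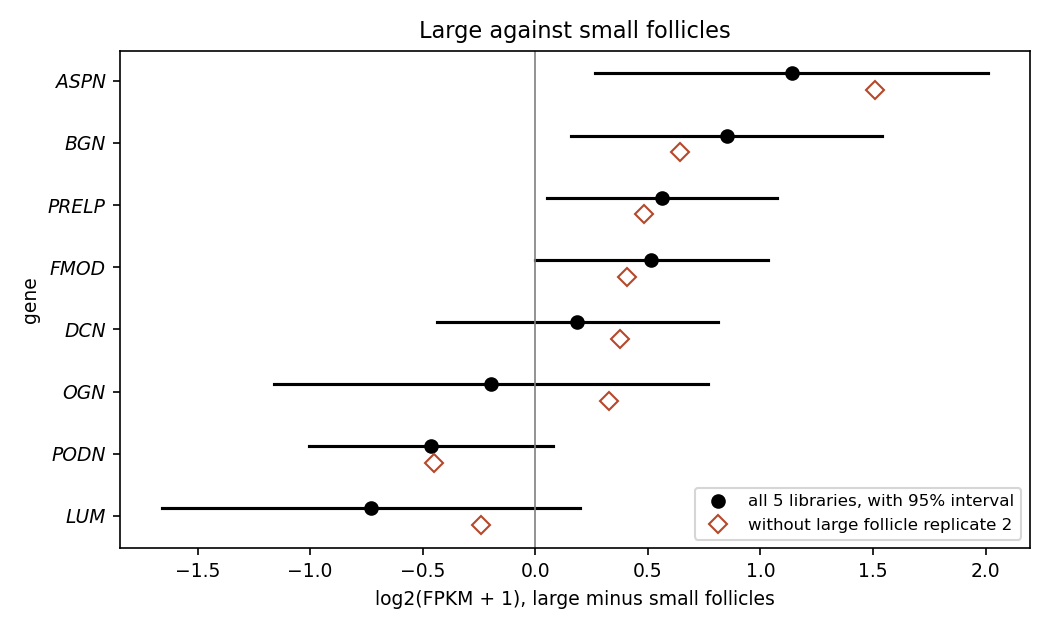
Large minus small follicles on the log2(FPKM + 1) scale (horizontal axis) for each gene (vertical axis). Black points with lines are the limma estimates from all 5 libraries with 95% intervals, and open diamonds are the estimates without large follicle replicate 2; OGN changes side, while ASPN moves from 1.14 to 1.51.

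Fibromodulin and PRELP both bind collagen, and their genes are neighbours. Fibromodulin carries keratan sulfate and controls fibril assembly, and PRELP has a basic end that binds heparan sulfate and links basement membranes to the connective tissue below. FMOD (gene 100526237, chromosome 9, 64062995 to 64073853, minus strand) had 114, 147 and 120.1 FPKM in large follicle replicates 1, 2 and 3, against 106 and 73.0 FPKM in replicates 1 and 2 of small follicles. PRELP (gene 100511032, chromosome 9, 64190978 to 64207008, plus strand) had 84.2, 111 and 104 FPKM in the large and 78.9 and 56.4 FPKM in the small follicle libraries. Both genes were highest in large replicate 2 and lowest in small replicate 2, and neither overlapped between the groups.

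The log2 difference of FMOD was 0.52 ± 0.23 (SE, 95% interval -0.0033 to 1.03, limma adjusted p = 0.483). That of PRELP was 0.56 ± 0.23 (SE, 95% interval 0.05 to 1.07, unadjusted limma p 0.0336 and adjusted p 0.417). Without small follicle replicate 2 they were 0.25 and 0.33 (limma adjusted p = 0.9996 for both). Without small follicle replicate 1 they were 0.78 (limma adjusted p = 0.404) and 0.80 (limma adjusted p = 0.394).

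FMOD and PRELP kept nearly the same proportion in every library. The ratio of FMOD to PRELP in FPKM was 1.35, 1.32 and 1.15 in large follicle replicates 1, 2 and 3, against 1.34 and 1.29 in replicates 1 and 2 of small follicles. A gap of 117124 bases with no other listed gene separates them, and they lie on opposite strands. A long noncoding RNA, LOC106507842, overlaps PRELP on the other strand and had at most 14 fragments in a library, against at least 2161 for PRELP. DCN and LUM lie 34945 bases apart with no listed gene between them. Their FPKM ratio ran from 19.2 in small replicate 2 to 59.4 in large replicate 2, with the next highest at 34.0 in large replicate 3. The part of gene position in these ratios was not tested.

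Lumican, a keratan sulfate proteoglycan that spaces collagen fibrils, is the product of LUM (gene 100152607, chromosome 5, 91748871 to 91756381, plus strand). It had 29.9, 9.55 and 26.6 FPKM in large follicle replicates 1, 2 and 3, against 29.8 and 37.6 FPKM in replicates 1 and 2 of small follicles. The low value rested on 185 fragments, whose exact Poisson 95% interval was 8.22 to 11.03 FPKM, far below the other 4 libraries. Large replicates 1 and 3 lay beside or just under small replicate 1. The log2 difference was -0.73 ± 0.41 (SE, 95% interval -1.66 to 0.20, limma adjusted p = 0.630). When large follicle replicate 2 was left out it was -0.24 (limma adjusted p = 0.851).

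Osteoglycin, also called mimecan, binds collagen and belongs to a separate class of the family. OGN (gene 106509723, chromosome 3, 42116521 to 42135940, minus strand) had 49.5, 17.3 and 57.9 FPKM in large follicle replicates 1, 2 and 3, against 40.3 and 44.7 FPKM in replicates 1 and 2 of small follicles. Large replicate 2 was again far below the rest, while replicates 1 and 3 lay above both small follicle libraries. The sign of the log2 difference depended on that library: it was -0.20 ± 0.43 (SE, 95% interval -1.16 to 0.77, limma adjusted p = 0.935) with it and 0.33 (limma adjusted p = 0.726) without it. Leaving out large replicate 1 or 3 gave -0.40 and -0.51.

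Podocan, a more distant relative that restrains smooth muscle cell growth, was the 1 gene of the 8 below the small follicles in every large follicle library. PODN (gene 100622214, chromosome 6, 159155251 to 159179456, minus strand) had 8.77, 9.17 and 10.3 FPKM in large follicle replicates 1, 2 and 3, against 12.1 and 14.6 FPKM in replicates 1 and 2 of small follicles. Large replicate 2 did not stand apart here. Its log2 difference of -0.46 ± 0.24 (SE, 95% interval -1.01 to 0.08) had a limma adjusted p of 0.577. When large follicle replicate 2 was left out it was -0.45 (limma adjusted p = 0.672).

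Contrasts within the large follicle group were wide. Large follicle replicate 2 was the lowest of the 3 for DCN, LUM, OGN and ASPN (50% of the 8 genes, background 61.9%). It was the highest for BGN, FMOD and PRELP (37.5%, background 15.7%). Measured from the mean of replicates 1 and 3 on the log2(FPKM + 1) scale, OGN stood at -1.58 in replicate 2, a distance that 0.443% of all tested genes reached or passed downward. LUM stood at -1.47 (0.634% of genes) and ASPN at -1.10 (2.82% of genes). In FPKM the mean of replicates 1 and 3 was 3.10 times that of replicate 2 for OGN, 2.96 times for LUM, 2.91 times for ASPN and 1.49 times for DCN. On the log2 scale BGN stood at 0.63 (2.07% of genes that far up), FMOD at 0.33 (7.63%) and PRELP at 0.24 (10.7%), on the other side of 0 from the median gene.

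**Figure D4:**
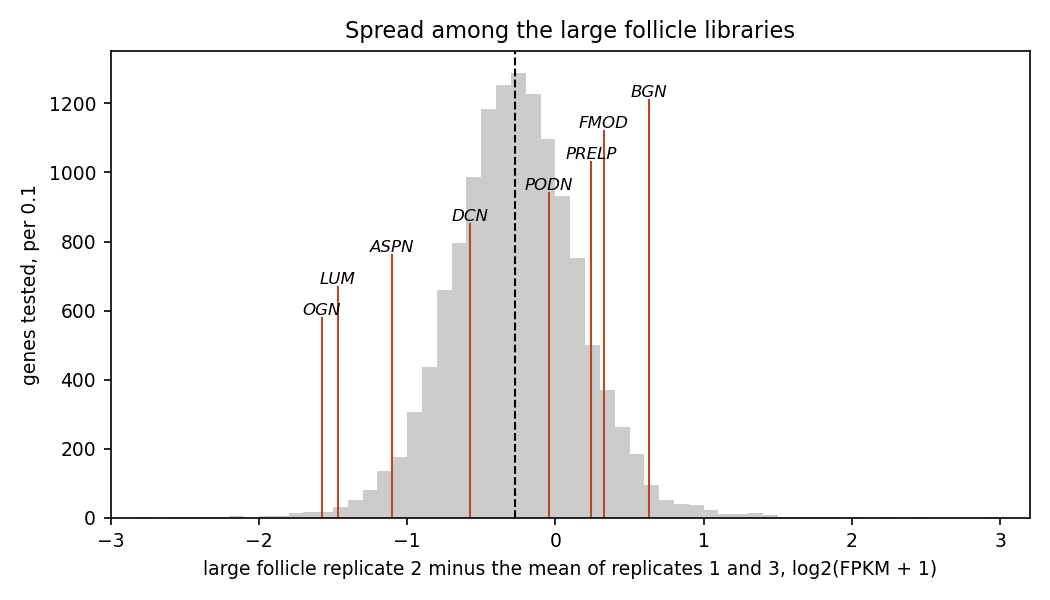
Number of tested genes (vertical axis) by the distance of large follicle replicate 2 from the mean of replicates 1 and 3 on the log2(FPKM + 1) scale (horizontal axis, bins of 0.1; dashed line, median of all genes at -0.27). Red lines mark the 8 proteoglycan genes, with OGN and LUM in the far left tail and BGN on the right.

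The small follicle libraries also differed from each other. The distances were smaller than those of large replicate 2 for LUM, OGN and ASPN, but larger for BGN, FMOD and PRELP. BGN, FMOD and PRELP were lower in replicate 2 than in replicate 1, with differences of -0.73, -0.53 and -0.48 on the log2(FPKM + 1) scale, while the median gene was at 0.34. Only 0.993%, 2.43% and 3.01% of tested genes were lower in replicate 2 by as much or more. The other 5 genes were higher in replicate 2, by 0.15 for OGN up to 0.53 for ASPN. In both groups the library with the most BGN also had the most FMOD and PRELP and the least DCN.

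Likeness of profile was measured as the root mean square (RMS) difference of log2(FPKM + 1) over the 5 libraries, after each gene was centred on its own mean. Between members it was smallest for FMOD and PRELP, 0.08, followed by FMOD and BGN at 0.25. LUM and OGN differed by 0.30, and LUM and BGN by 1.14, the widest pair. These distances describe 5 libraries that share 2 groups, and carry no test.

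**Figure D5:**
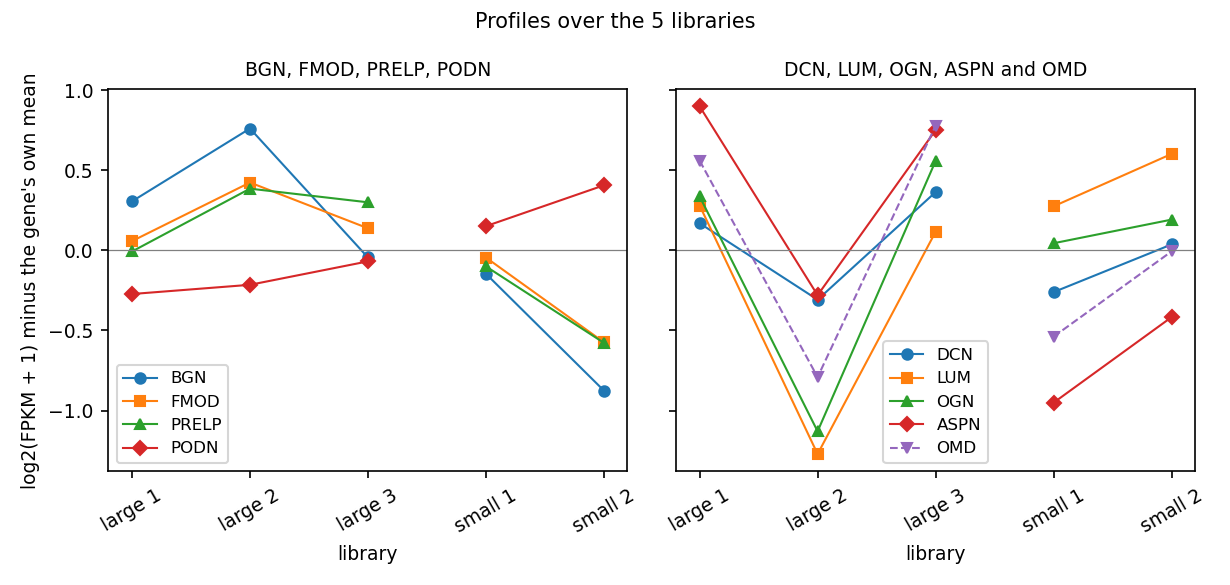
log2(FPKM + 1) minus the gene's own mean over the 5 libraries (vertical axis) by library (horizontal axis); lines join libraries of a group for the eye only and imply no order. BGN, FMOD and PRELP peak in large replicate 2 and are lowest in small replicate 2 (left panel), where LUM, OGN, ASPN and the neighbouring gene OMD dip in large replicate 2 (right panel).

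Among 5231 tested genes with a symbol and a mean of at least 10 FPKM, FMOD was the second nearest gene to PRELP. The nearest to both was SLC15A3, a lysosomal peptide transporter, with RMS differences of 0.05 from each, and LAPTM5, a lysosomal protein of blood cells, came second for FMOD at 0.05. The 2 genes nearest to BGN were PDPN, the membrane protein podoplanin, at 0.12 and ASS1, argininosuccinate synthase, at 0.13. Nearest to LUM were EFNB3, an ephrin, at 0.14 and PRR15 at 0.16, and nearest to OGN were RAB8B, a vesicle transport GTPase, and NME7, both at 0.13. DCN was most like RXRB, a retinoid X receptor, at 0.03 and TMEM59 at 0.04. The nearest to ASPN were CD9, a tetraspanin, and MSRB2, a methionine sulfoxide reductase, both at 0.18. PODN was nearest to PRPF19, a splicing factor, and EHMT2, a histone methyltransferase, both at 0.04.

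Of the 10 further family genes, 5 passed the filter on low values. Limma called 0 of them, with 0 at an unadjusted p under 0.05, and voom on the recovered fragments called 0. OMD, the keratan sulfate proteoglycan osteomodulin, sits between OGN and ASPN on chromosome 3 and had 11.103, 3.75 and 13.1 FPKM in large follicle replicates 1, 2 and 3, against 4.65 and 7.18 FPKM in replicates 1 and 2 of small follicles. In large replicate 2 it stood at -1.46 from the mean of the other large follicle libraries (log2 scale), and its log2 difference between groups was 0.45 ± 0.45 (SE, limma adjusted p = 0.831). Leaving that library out gave 0.94 (limma adjusted p = 0.200), whereas leaving out replicate 3 of the large follicles gave 0.16 (limma adjusted p = 0.922).

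The run OGN, OMD, ASPN and ECM2 lies within the gene CENPP, which is on the opposite strand and had at most 24 fragments in a library. Gaps in the run were 6662, 10520 and 12343 bases, with no listed gene starting and ending inside them. Each of the 4 genes was lowest among the large follicles in replicate 2, as were 61.9% of all genes tested. ECM2, the last of the run, stood at -0.81 from the mean of replicates 1 and 3 there, a distance reached by 9.70% of tested genes. Log2 differences between groups were 1.14 for ASPN, 0.45 for OMD, -0.20 for OGN and -0.39 ± 0.30 (SE) for ECM2 (limma adjusted p = 0.753 for ECM2). These values rested on large follicle replicate 2, without which they were 1.51 for ASPN, 0.94 for OMD, 0.33 for OGN and -0.12 for ECM2 (limma adjusted p = 0.952 for ECM2).

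Tsukushi, encoded by TSKU, binds BMPs and other signalling proteins and had a log2 difference of -0.33 ± 0.25 (SE, limma adjusted p = 0.749), which was -0.52 without large follicle replicate 2 and -0.18 without replicate 3. Keratocan (KERA), next to LUM, and epiphycan (EPYC), the next family gene after it, had at most 1 fragment in any library. CHADL stayed under the filter and was named after its values were seen: it had 47, 21 and 25 fragments in large follicle replicates 1, 2 and 3, against 5 and 4 in small follicle replicates 1 and 2.

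The enzymes that build chondroitin and dermatan sulfate chains, the sugar part of decorin and biglycan, showed no calls. Of 22 tested genes, 5 had higher and 17 (77.3%) lower values in large follicles, against 60.1% lower over all genes tested, with a median log2 difference of -0.19 against -0.08 for all genes. Limma called 0 of them, with 3 at an unadjusted p under 0.05 (background 10.4%), and voom called 0. UST, which sulfates the uronic acids, had 0.709 ± 0.170 FPKM (SD, n = 3) in large and 2.45 ± 0.433 FPKM (SD, n = 2) in small follicles (limma adjusted p = 0.126). It passed the filter on low values only through the small follicles, where it was high. CHST11 and CHST15, both sulfotransferases acting on the galactosamine, had log2 differences of -1.09 ± 0.38 and -0.55 ± 0.23 (limma adjusted p = 0.318 and 0.432). CHST11 had 11.9 FPKM in small replicate 2 and 4.69 FPKM in small replicate 1, so its difference rested largely on the former, and it was -0.50 without that library.

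Enzymes for keratan sulfate, carried by fibromodulin and lumican, gave a similar count. Of 10 tested genes 2 had higher and 8 lower values, against 60.1% lower over all genes tested. Limma and voom each called 0 of the 10, and 1 had an unadjusted limma p under 0.05 (background 10.4%). That was CHST2, a sulfotransferase, at 4.47 ± 0.696 FPKM (SD, n = 3) in large and 2.14 ± 0.529 FPKM (SD, n = 2) in small follicles (limma adjusted p = 0.341). B3GNT7 and ST3GAL1 had log2 differences of -0.56 ± 0.26 and -0.54 ± 0.26 (limma adjusted p = 0.507 and 0.525). Without small follicle replicate 2 ST3GAL1 was at -0.23.

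The collagens and other matrix partners of these proteoglycans gave no call. Of 19 tested genes 13 (68.4%) had higher and 6 lower values, against 39.9% higher over all genes tested, with a median log2 difference of 0.12. In 6 of them (31.6%) every large follicle library was above both small ones, and in 0 every one was below, against 10.9% and 15.2% of all genes tested. Limma called 0, with 2 at an unadjusted p under 0.05 (background 10.4%), ELN and COL6A3, and voom called 0. ELN, the elastin precursor, had 124, 213 and 146 FPKM in large follicle replicates 1, 2 and 3, against 69.4 and 59.1 FPKM in replicates 1 and 2 of small follicles. The groups were far apart, with a log2 difference of 1.28 ± 0.25 (SE, limma adjusted p = 0.0562). ELN passed the threshold without large follicle replicate 2 (limma adjusted p = 0.0275) or without replicate 3 (limma adjusted p = 0.0159). With all libraries kept it also passed with libraries scaled to a common FPKM sum (limma adjusted p = 0.0432). It passed with the replicate number as a block too (limma adjusted p = 0.0117). Only the large follicles have a replicate 3, so that library adds nothing to the estimate of the block fit. COL6A3, a chain of the beaded collagen that decorin and biglycan bind, had 168 ± 29.8 FPKM (SD, n = 3) in large follicles and 102 ± 2.67 FPKM (SD, n = 2) in small ones (limma adjusted p = 0.233). The matrix glycoprotein TNC had a log2 difference of 0.64 ± 0.36 (limma adjusted p = 0.616). Its value was 0.32 when large follicle replicate 2 was left out.

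Outside the leucine-rich family, the list of proteoglycan cores also held BCAM, a laminin receptor, and HAPLN3, a link protein, neither of them a core. Of its 23 tested genes 7 had higher and 16 (69.6%) lower values in large follicles, against 60.1% lower over all genes tested. The median log2 difference was -0.13, against -0.08 over all genes. Limma called 0 higher (background 0.535%) and 1 lower (background 0.443%), and 6 had an unadjusted p under 0.05 (background 10.4%), while voom called 0 of the 23. GPC1, a glypican bound to the cell membrane, fell in large follicles to 61.1 ± 3.27 FPKM (SD, n = 3), where small follicles had 131 ± 11.05 FPKM (SD, n = 2), a log2 difference of -1.08 ± 0.19 (limma adjusted p = 0.0363). This call was lost without large follicle replicate 1 (limma adjusted p = 0.113), small follicle replicate 1 (limma adjusted p = 0.2201) or small follicle replicate 2 (limma adjusted p = 0.154). With all libraries kept it was also lost with no filter (limma adjusted p = 0.0998), at a mean of at least 5 FPKM (limma adjusted p = 0.0526) and by voom (adjusted p = 0.0633). Median-of-ratios scaling (limma adjusted p = 0.130) and a fit with no mean-variance trend (limma adjusted p = 0.0852) lost it too. The call was also absent with the replicate block (limma adjusted p = 0.0816), to whose estimate large replicate 3 adds nothing. HSPG2, the basement membrane proteoglycan perlecan to which PRELP binds, had 57.3, 105 and 108 FPKM in large follicle replicates 1, 2 and 3, against 167 and 229 FPKM in replicates 1 and 2 of small follicles. Its log2 difference was -1.16 ± 0.30 (limma adjusted p = 0.137). It passed the threshold without large follicle replicate 2 (limma adjusted p = 0.0279) or replicate 3 (limma adjusted p = 0.0248). It also passed with the replicate block (limma adjusted p = 0.0126), whose estimate of -1.32 was the same as without large replicate 3. AGRN, agrin, had -0.91 ± 0.22 (limma adjusted p = 0.112). HSPG2 and PRELP thus lay on opposite sides of 0.

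Receptors and growth factors that these proteoglycans bind were evenly split, with 10 higher and 10 lower among 20 tested, against 39.9% higher over all genes tested. Limma and voom each called 0, and 1, CD14, had an unadjusted limma p under 0.05 (background 10.4%). CD14, the co-receptor used by soluble biglycan, had a log2 difference of 0.62 ± 0.27 (limma adjusted p = 0.464). EGFR, a decorin receptor, had -0.77 ± 0.38 (limma adjusted p = 0.543), and the ligand TGFB3 had -0.50 ± 0.25 (limma adjusted p = 0.544). Without large follicle replicate 1 EGFR was at -0.45, and without small follicle replicate 2 TGFB3 was at -0.25, neither called.

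The list of proteases that process or cleave the family also held their helpers and the metalloproteinase inhibitors TIMP1, TIMP2 and TIMP3. It had 8 higher and 5 lower values among 13 tested, against 39.9% higher over all genes tested. TIMP1 and TIMP2 were among the higher and TIMP3 was among the lower. Limma and voom each called 0 of the 13, and 5, TIMP1 among them, had an unadjusted limma p under 0.05 (background 10.4%). MMP2, a gelatinase that cleaves decorin, had 313, 300.2 and 377 FPKM in large follicle replicates 1, 2 and 3, against 199 and 191 FPKM in replicates 1 and 2 of small follicles. The groups were apart, at a log2 difference of 0.75 ± 0.21 (limma adjusted p = 0.186). MMP9 had a log2 difference of 1.60 ± 0.54 (limma adjusted p = 0.301). It had 3.06, 10.3 and 17.4 FPKM in large replicates 1, 2 and 3, against 2.46 and 1.82 FPKM in small replicates 1 and 2. Large replicate 1 thus lay near the small follicle libraries. PCOLCE2, an enhancer of procollagen processing, had a log2 difference of -1.35 ± 0.36 (limma adjusted p = 0.159).

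Markers of the cells that could hold these transcripts were counted in the same fit. In the fibroblast and theca externa or stroma list 12 of 20 tested genes had higher and 8 lower values, against 39.9% higher over all genes tested. Limma called 2 higher (background 0.535%) and 0 lower (background 0.443%). MFAP4, a microfibril protein, rose to 103 ± 3.84 FPKM (SD, n = 3), where small follicles had 30.6 ± 7.63 FPKM (SD, n = 2), a log2 difference of 1.75 ± 0.21 (limma adjusted p = 0.00641). SFRP4, a Wnt antagonist, rose by 1.76 ± 0.27 (limma adjusted p = 0.0194), a call lost without large replicate 1 (limma adjusted p = 0.0997), small replicate 1 (limma adjusted p = 0.0790) or small replicate 2 (limma adjusted p = 0.129), with no filter (limma adjusted p = 0.130) or with the replicate block (limma adjusted p = 0.0901). SFRP4 had 3.59, 3.09 and 4.56 FPKM in large follicle replicates 1, 2 and 3, against 0.428 and 0.348 FPKM in replicates 1 and 2 of small follicles. It thus passed the filter on low values only through the large follicles, where it was high. With no filter MFAP4 was just outside the threshold (limma adjusted p = 0.0520). POSTN, periostin, had 0.82 ± 0.32 (limma adjusted p = 0.382), and 0.38 without small follicle replicate 1. The summed FPKM of this list was 2054 to 2420 in large and 2611 to 3304 in small follicles. That separation rested on VIM, its most abundant gene. Without VIM, a sum added after the values were seen, it was 842 to 956 in large and 826 to 881 in small follicles.

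Sums of 4 further marker lists were higher in every large than in every small follicle library, and stayed so without the most abundant gene of each list. These were theca interna (2023 to 4250 against 914 to 1213 FPKM, with 6 of 10 tested markers higher), endothelium (494 to 583 against 378 to 422 FPKM, 10 of 13), myeloid cells (504 to 733 against 414 to 466 FPKM, 13 of 15) and red blood cells (1006 to 1681 against 235 to 703 FPKM, 4 of 4). The smooth muscle sum was also apart, at 4049 to 4955 against 3547 to 3649 FPKM, but 8 of its 13 tested markers had lower values in large follicles. Without ACTA2 it overlapped, at 1997 to 2522 against 1959 to 2046 FPKM. MYH11 and LMOD1, contractile genes of smooth muscle, had log2 differences of -0.77 and -1.01 (limma adjusted p = 0.309 and 0.0904). The contractile genes ACTA2, CNN1 and TAGLN had 0.40, 0.38 and 0.50 (limma adjusted p = 0.742, 0.635 and 0.611). Of the 13 tested markers, 3 lay higher and 3 lay lower in every large follicle library than in both small ones. Granulosa sums overlapped, at 7253 to 15694 against 5553 to 8148 FPKM, with 6 of 16 tested markers higher. So did those of lymphocytes (12.2 to 18.0 against 11.3 to 13.3 FPKM, 7 of 8) and surface epithelium (35.2 to 40.7 against 35.9 to 36.7 FPKM, 3 of 4). No gene of these lists was at 0 in every library. Over all genes tested, the share with higher values in large follicles was 39.9%.

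In large follicle replicate 2, where LUM, OGN and ASPN were low, the theca interna sum of 4250 FPKM was the highest of any library, and at 1799 FPKM it was still the highest without CYP17A1, the most abundant gene of that list. The granulosa sum of 15694 FPKM was also the highest, but INHA made up 11739 FPKM of it. Without INHA it was 3955 FPKM, below large replicate 3 at 5209 FPKM. FSHR and AMH, both granulosa markers, were lowest of all libraries there, at 1.20 and 6.67 FPKM. Other granulosa markers went the other way. Among the large follicles, replicate 2 was the highest for 8 and the lowest for 6 of the 16 tested, against 15.7% and 61.9% of all genes tested. The stroma sum of 2054 FPKM was the lowest of any library, but without VIM its 842 FPKM lay above small replicate 2 at 826 FPKM. FSHR and AMH were singled out after their values were seen. The part of these cell types in the proteoglycan values was not tested.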

How the data were processed

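The authors deposited 1 FPKM value per gene and library, per the file headers. The submitters' processing notes name the build Sscrofa11.1 and, without roles, featureCounts 1.5.0-p3, HISAT2 2.0.5, StringTie 1.3.3 and Trimmomatic 0.38. Per the labels' protocols, libraries were stranded mRNA. The sources used here do not give whether counting used the strand. Here, totals and fragments were worked back from the FPKM steps, within 0.001 of a fragment. For OGN, BGN, PRELP, ASPN and PODN, the length that gave whole fragments was shorter than the listed one. Intervals from fragments cover counting error only.

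Genes of at least 1 FPKM in at least 2 libraries were tested with limma 3.58.1 (R 4.3.3) on log2(FPKM + 1) with a mean-variance trend, no term but the group, and adjusted by Benjamini-Hochberg. This scale understates changes of low genes. The members and gene lists were chosen with earlier results of these data known. Named genes were all members, the 2 nearest profiles of each, and from the pathway and stroma lists the 3 tested genes of smallest p and any called; the other cell type lists are given as sums and counts, with a few genes. Alternatives covered pseudocounts, filters, scalings, variance models, a replicate block, voom and each library left out. Scaling to a common FPKM sum and marker sums without the most abundant gene were added after seeing the data. No sequences were used here.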

Additional observations from a re-analysis of the deposited data

How the results depend on the processing

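Calls among the 8 proteoglycan genes stayed at 0 in the alternatives that kept all libraries and ranged from 0 to 1 when each library was left out, the 1 being ASPN without large follicle replicate 2. At a mean of at least 5 FPKM ASPN was not tested. Members at an unadjusted p under 0.05 numbered from 1 to 3 in the fits that kept all libraries. Over all genes, 128 were called (70 higher, 58 lower). The count was 32 with no filter, 41 at a mean of at least 5 FPKM, 201 with quantile normalization, 202 after median-of-ratios scaling, 70 by voom, and between 29 and 268 with a library left out. With libraries scaled to a common FPKM sum, 66 were higher and 86 lower, and the median of all genes moved from -0.08 to -0.19. Among the 8 genes, the log2 difference of DCN was -0.0030 with quantile normalization and that of OGN ran from -0.51 to 0.33 with a library left out, above 0 only without large follicle replicate 2; the other 6 kept their sign in every fit that tested them. Among the genes near in profile, TMEM59 ran from -0.050 to 0.37 with a library left out, below 0 only without small follicle replicate 1. RAB8B turned to 0.010 with a pseudocount of 5, 0.062 after median-of-ratios scaling and 0.093 with quantile normalization, and ran from -0.30 to 0.44 with a library left out. NME7 turned to -0.31 with the replicate block, -0.11 with a common FPKM sum and ran from -0.31 to 0.47 with a library left out. The cause was not tested.

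The replicate block called 157 genes and 0 of the 8. Only the large follicles have a replicate 3, so that library adds nothing to the size difference in the block fit. Its log2 differences equal those without large follicle replicate 3. Same-numbered libraries deviated from their group means with correlations of -0.0015 and -0.45 over genes, so the numbers were not taken to pair the samples. At these depths ASPN, with 15 to 146 fragments a library, was the least precisely counted of the 8.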
